A study of Mus musculus with 3 samples.

Results

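Hepatocytes, the main cell type of the liver, from mice on a high fat diet were compared with those from mice on a normal diet, using 2 of the 3 single-cell RNA libraries of a study on hyodeoxycholic acid (HDCA), a bile acid. The HFD library came from wild-type (WT) mice fed a 60% high fat diet, the third library, HFD_HDCA, from WT mice given that diet with 0.25% HDCA, and the ND library from WT mice on a normal diet. Feeding lasted 12 weeks, and hepatocytes were freed by collagenase perfusion in a two-step digestion and captured in droplets with a 3′ kit that tags each RNA molecule with a unique molecular identifier (UMI). Each diet had 1 library, so mouse, cell preparation and diet cannot be told apart, no test was run, and all intervals are 95% intervals of counting error alone. Not given in the sources used here are the number and sex of the mice behind a library, and the hour at which the livers were taken.

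A barcode was kept as a hepatocyte when it had at least 200 genes, at most 50% of its counts from mitochondrially encoded genes, and fewer than 3 of 8 endothelial and fewer than 3 of 7 Kupffer cell markers. This left 2863 of 6290 HFD barcodes (45.5%) and 2669 of 5755 ND barcodes (46.4%), 5532 of the 16918 barcodes of the series. The largest loss was to the gene minimum, which 3192 HFD and 2525 ND barcodes failed. Endothelial markers then removed 18 HFD and 90 ND barcodes, and Kupffer markers 17 in each library. Doublets were not removed. Between the libraries, 5 barcode sequences among the kept cells were shared. At least 3 of 12 hepatocyte markers were found in 99.9% of HFD cells and in 100% of ND cells, but also in all 18 HFD and 90 ND endothelial marked barcodes, so this count does not set hepatocytes apart from free hepatocyte RNA. The 12 markers took 9.99% of the nuclear-encoded counts of the kept HFD cells and 11.01% of those of the kept ND cells, against 5.25% in the HFD and 3.11% in the ND endothelial marked barcodes. The kept cells held 3701480 HFD and 4157680 ND counts of nuclear-encoded genes, with a median of 869 UMIs and 469 genes per HFD cell and 936 UMIs and 503 genes per ND cell.

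The hepatocyte makes bile acids, plasma proteins, glucose, urea and lipoproteins, and stores or burns fatty acids as feeding and fasting require. Much of this is under a daily clock, in which the activators CLOCK and BMAL1 switch on their own repressors, and which meals, glucocorticoids and insulin can reset. Sterols, fatty acids and foreign compounds act through further regulators, among them the SREBP proteins and the nuclear receptors PPARα, FXR, PXR and CAR.

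Counts were summed over the kept cells of a library and given per 1000000 nuclear-encoded counts (CPM). A gene was measured when the sum over both libraries reached 100 counts, which 6244 of 14541 detected genes did. Higher in HFD by 2-fold or more were 195 of them (3.12%), and 143 (2.29%) were lower by as much. The median log2 ratio of HFD over ND was -0.02, and 94.6% of the measured genes lay within 2-fold. The interval lay wholly past 2-fold for 115 of the higher and 62 of the lower genes, and 46 and 19 genes differed by at least 4-fold. In such sums, fewer cells that express a gene and less RNA of it per cell cannot be told apart.

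**Figure D1:**
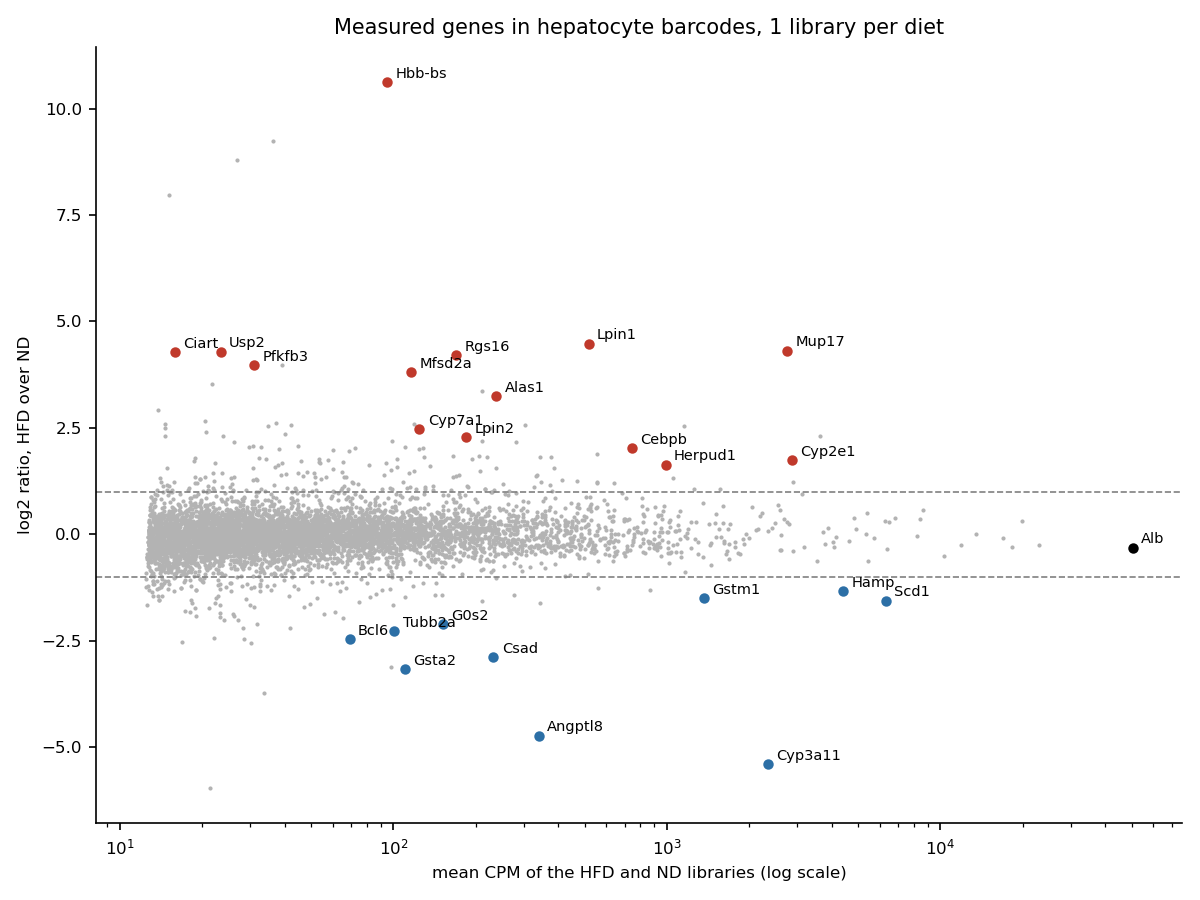
The 6244 measured genes by mean level in the HFD and ND libraries (horizontal axis, CPM, log scale) and by log2 ratio of HFD over ND (vertical axis). Grey dots are measured genes, dashed lines mark 2-fold, and labels mark some of the genes named in the text. Of the labelled genes, those in red are at least 2-fold higher in HFD and those in blue at least 2-fold lower. The labelled black point is Alb.

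RNA of other cells was read from marker sums. The endothelial and Kupffer markers also served to remove barcodes, so low sums of these follow in part from the filter. Endothelial markers summed to 3.24 CPM in HFD and 7.94 CPM in ND, with 2 of 8 markers at 0 in HFD and 0 of 8 in ND. Kupffer markers summed to 2.97 CPM in HFD and 2.65 CPM in ND, with 3 and 2 of 7 markers at 0. The 4 measured genes with no count in ND were haemoglobin genes. Together haemoglobin genes had 1278 counts in 15 HFD cells, 99.6% of them in 10 cells, and 0 counts in ND, at least 479-fold higher against a limit of 3 counts. Igkc, an immunoglobulin light chain, had 273 HFD counts in 6 cells and 19 ND counts in 8 cells. With the 13 HFD and 9 ND barcodes that held at least 3 markers of another cell type left out, an alternative chosen after seeing the data, Hbb-bs, a haemoglobin chain, kept 7 HFD counts and 0 ND counts, Hba-a2, another, had 0 counts in both, and Igkc turned round, with 3 HFD and 9 ND counts (log2 ratio -1.27, against 3.98 with them). In that alternative 190 genes were higher and 142 lower. Of the measured genes, 3069 were no higher in the endothelial or Kupffer marked barcodes than in the hepatocytes of the library with the higher level. These held 164 of the 195 higher and 98 of the 143 lower genes. A gene with a wide ratio passes this rule more easily, so these counts are not a check of the ratios.

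Clock repressors and clock output genes were among the lists with the highest ratios in HFD. Sequences upstream of the clock genes are given first, because the clock proteins act through short DNA elements there: the E-box (CACGTG, bound by CLOCK and BMAL1), the D-box (TTATGTAA, bound by DBP and TEF) and the ROR element (TAGGTCA, bound by ROR and REV-ERB receptors). Each was searched on both strands of the RefSeq windows that run from 250 bases before to 50 bases after a gene's start (build GRCm38.p6), and the motifs searched do not overlap one another in the windows printed. The E-box letters occurred in 7.15% of all 32851 windows, the D-box letters in 0.938% and the ROR element letters in 2.61%. Of the repressors, 4 of the 8 with a window held an E-box (Ciart, Per1, Cry1 and Bhlhe41), against 0 of 4 activators and 2 of 16 clock output genes (Tef and Tspan4). Each printed window is read 5′ to 3′ on its gene's strand, with the motif in capitals. Ciart held 3 E-boxes (minus strand, chr3:95882179-95882478), Per1 held 1 (plus strand, chr11:69098699-69098998), and Per3 held 2 D-boxes (minus strand, chr4:151044616-151044915). The ROR element was found in 1 of 4 activators (Arntl), 0 of 8 repressors and 2 of 16 clock output genes (Nfil3 and Leo1, with log2 ratios of 0.19 and -0.88). A window of Arntl held it just past its start (plus strand, chr7:113207261-113207560).
Ciart: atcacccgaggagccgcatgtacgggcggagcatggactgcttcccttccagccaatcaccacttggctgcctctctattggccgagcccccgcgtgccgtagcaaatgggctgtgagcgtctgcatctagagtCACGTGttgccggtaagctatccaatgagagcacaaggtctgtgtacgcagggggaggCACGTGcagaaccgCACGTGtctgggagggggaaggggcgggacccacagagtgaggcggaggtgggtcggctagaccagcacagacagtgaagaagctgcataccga
Per1: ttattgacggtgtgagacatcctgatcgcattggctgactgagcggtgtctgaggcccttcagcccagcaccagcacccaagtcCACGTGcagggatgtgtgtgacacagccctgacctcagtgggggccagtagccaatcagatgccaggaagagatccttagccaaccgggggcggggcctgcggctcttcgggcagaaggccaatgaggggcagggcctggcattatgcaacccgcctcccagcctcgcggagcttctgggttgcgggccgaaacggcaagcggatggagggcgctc
Per3: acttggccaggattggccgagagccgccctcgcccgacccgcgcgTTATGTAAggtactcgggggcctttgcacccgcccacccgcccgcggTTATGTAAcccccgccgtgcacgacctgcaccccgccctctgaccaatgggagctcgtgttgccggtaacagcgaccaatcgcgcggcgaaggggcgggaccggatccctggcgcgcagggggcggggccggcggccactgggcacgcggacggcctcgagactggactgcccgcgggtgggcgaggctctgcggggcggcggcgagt
Arntl: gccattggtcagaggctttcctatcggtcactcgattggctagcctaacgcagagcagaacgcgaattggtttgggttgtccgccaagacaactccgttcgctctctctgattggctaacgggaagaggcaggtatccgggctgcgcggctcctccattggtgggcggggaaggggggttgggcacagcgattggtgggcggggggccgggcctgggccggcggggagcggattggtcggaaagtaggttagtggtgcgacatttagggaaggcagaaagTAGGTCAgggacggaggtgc
A match is a description of these letters and not a site shown to be bound, and Cry1 had an E-box too but was lower in HFD.

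Several repressors of the clock were higher in HFD. Of the 10 repressors listed, 8 were measured, 4 lay 2-fold or more above ND in HFD and 0 that far below, with a median log2 ratio of 1.001, against -0.02 for all measured genes. In cells with at least 500 genes that median was 0.09. Of the 8, 4 had under 50 counts in 1 of the libraries, so these passed the count minimum through the library where they were high. Ciart, a repressor also called CHRONO, had 30.3 CPM in HFD and 1.44 CPM in ND, or 112 against 6 counts (log2 ratio 4.28, 3.22 to 5.87). Per1 and Per2, which bind and silence the activators, stood at 28.6 and 36.5 CPM in HFD and at 8.66 and 14.4 CPM in ND (log2 ratios 1.71 and 1.33). Per3 fell under the count minimum, with 61 HFD and 7 ND counts. The REV-ERB receptors, which switch off Arntl, differed from each other: Nr1d2 had 103 CPM in HFD and 45.2 CPM in ND (log2 ratio 1.18, 0.93 to 1.45), and Nr1d1 had 71.1 CPM in HFD and 58.4 CPM in ND (log2 ratio 0.28, 0.02 to 0.54). Cry1 was lower, at 12.4 CPM in HFD and 23.1 CPM in ND (log2 ratio -0.89), and Cry2 was higher, at 19.99 and 11.3 CPM in HFD and ND (log2 ratio 0.82).

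Of the 5 activators listed, 3 were measured, with 0 at least 2-fold higher, 1 at least 2-fold lower and a median log2 ratio of -0.08. Clock, the lower one, had 25.9 CPM in HFD and 60.9 CPM in ND (log2 ratio -1.23, -1.58 to -0.89), and it was at 126 CPM in the endothelial and Kupffer marked barcodes, whose part in this difference was not tested. Arntl, which encodes BMAL1, had 12 HFD and 48 ND counts, under the count minimum (log2 ratio -1.79, -2.88 to -0.90). Npas2, a stand-in for CLOCK, had 0 HFD and 15 ND counts. Rora, a receptor that switches on Arntl, was near equal, with 169 CPM in HFD and 178 CPM in ND.

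Clock output genes followed the repressors. Of 19 listed, 18 were measured, with 10 at least 2-fold higher, 1 at least 2-fold lower and a median log2 ratio of 1.04; 3 of the 18 had under 50 counts in a library. Usp2, a ubiquitin protease of the clock, had 44.6 CPM in HFD and 2.16 CPM in ND (log2 ratio 4.29, 3.40 to 5.52). Rgs16, a regulator of G protein signalling that cycles with feeding, had 321 CPM in HFD and 17.3 CPM in ND (log2 ratio 4.21, 3.87 to 4.58). Dbp and Tef, the transcription factors of the D-box, stood at 72.1 and 94.8 CPM in HFD and at 12.0 and 37.0 CPM in ND (log2 ratios 2.57 and 1.35). Wee1, a cell cycle kinase, was at 24.3 CPM in HFD and 3.13 CPM in ND (log2 ratio 2.91), and Upp2, a uridine phosphorylase, at 459 and 102 CPM (log2 ratio 2.17). Noct, a nocturnally expressed phosphatase, and Nampt, an enzyme of NAD synthesis, had log2 ratios of 1.48 and 1.04. Of the 18, 4 had a log2 ratio below 0, among them Leo1 and Pnrc1 (-0.88 and -0.42). Cirbp, a cold-induced RNA-binding protein, was the lone one at least 2-fold lower, with 14.3 CPM in HFD and 36.6 CPM in ND (log2 ratio -1.34, -1.83 to -0.89). It was at 46.6 CPM in the endothelial and Kupffer marked barcodes, whose part was not tested. Since the hour at which each liver was taken is not given in the sources used here, diet and hour cannot be told apart in these genes.

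**Figure D2:**
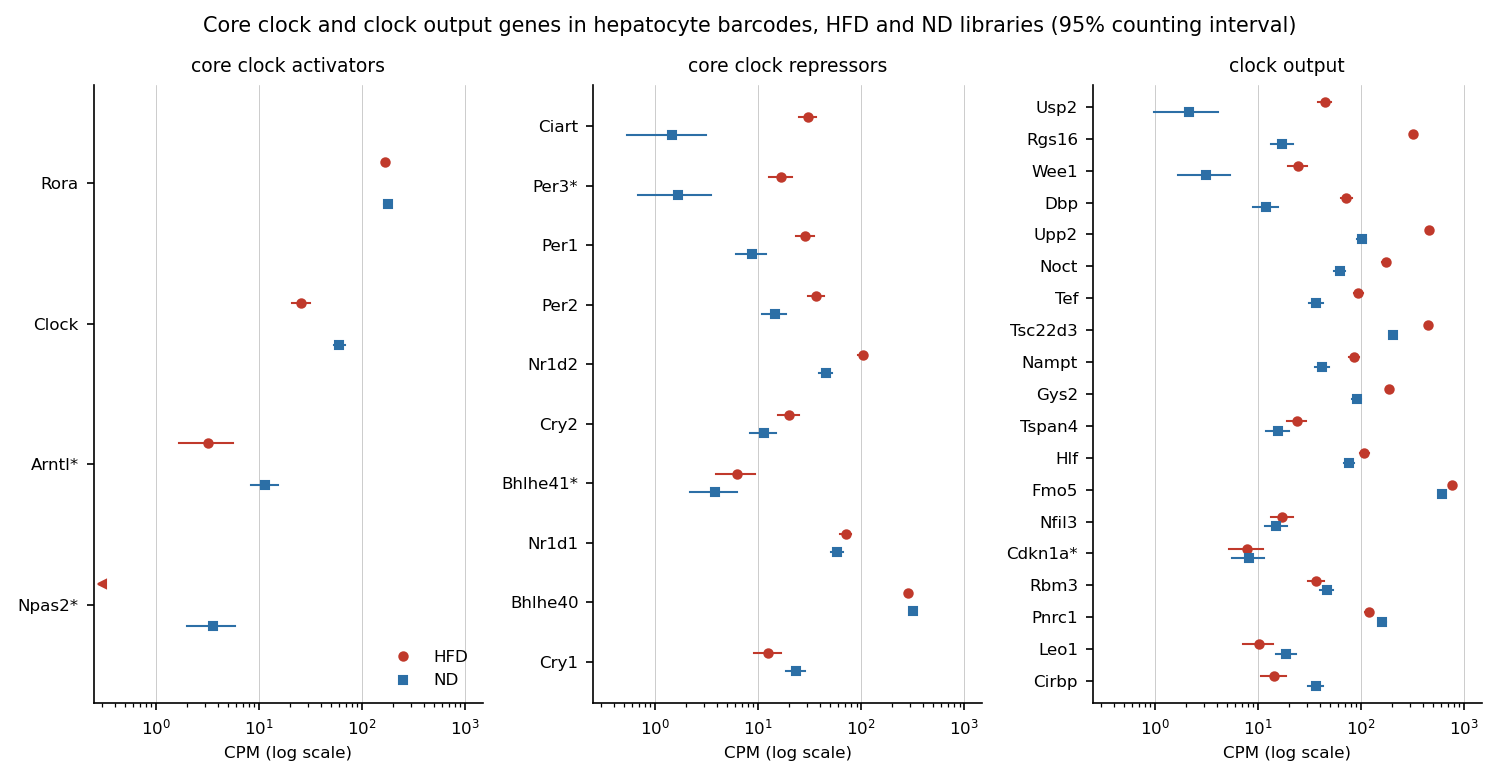
Levels of clock genes (horizontal axis, CPM, log scale) in 3 panels, activators, repressors and output genes, with HFD as red circles above ND as blue squares and lines as 95% counting intervals; an asterisk marks genes under the 100-count minimum, and the arrow at the left edge marks the 0 counts of Npas2 in HFD. Most repressors and outputs lie to the right in HFD (Ciart 30.3 CPM against 1.44 CPM in ND), while Clock and Arntl lie to the left.

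Genes that glucocorticoids switch on were higher as a list, with 8 of 19 measured genes at least 2-fold higher, 1 at least 2-fold lower and a median log2 ratio of 0.95. Of the 19, 4 (Cebpd, Zbtb16, Mt2 and Per1), all among the 8, had under 50 counts in ND and so passed the count minimum through HFD. Fkbp5, a co-chaperone of the glucocorticoid receptor, had 72.4 CPM in HFD and 17.1 CPM in ND (log2 ratio 2.08, 1.70 to 2.48). Zbtb16 and Cebpd, both transcription factors, were at 24.3 and 24.9 CPM in HFD and at 4.81 and 4.33 CPM in ND (log2 ratios 2.31 and 2.49). Klf15 and Klf9, zinc finger factors of fasting and stress, had log2 ratios of 1.14 and 0.96, and Tat, the tyrosine aminotransferase long used as a glucocorticoid marker, had 4109 CPM in HFD and 2119.7 CPM in ND (log2 ratio 0.95, 0.92 to 0.99). Other well-known targets were lower: Sgk1, a kinase, had 21.9 CPM in HFD and 71.9 CPM in ND, and Dusp1, a phosphatase of MAP kinases, had 354 CPM in HFD and 672 CPM in ND. Sgk1 stood at 859 CPM in the marked barcodes, and 10 of the 19 measured genes were no higher there; the part of those cells in the list was not tested. Per1, Mt1 and Mt2 are also in other lists here.

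Of 24 measured liver transcription factors, 3 were at least 2-fold higher, 3 at least 2-fold lower, and the median was 0.03. Over all measured genes the shares were 3.12% and 2.29%. Hnf4a, the central hepatocyte factor, had 218 CPM in HFD and 228 CPM in ND (log2 ratio -0.06, -0.20 to 0.08), and Cebpa had 273 CPM in HFD and 365 CPM in ND (log2 ratio -0.42). Cebpb, a factor of gluconeogenesis and the acute phase, had 1195 CPM in HFD and 294 CPM in ND (log2 ratio 2.02, 1.93 to 2.12). Onecut1, which encodes HNF6, had 64.3 CPM in HFD and 10.3 CPM in ND (log2 ratio 2.62, 2.16 to 3.14), and Klf13 had 95.1 CPM in HFD and 34.4 CPM in ND (log2 ratio 1.46). Klf13 was at 180 CPM in the endothelial and Kupffer marked barcodes, whose part was not tested. Lower in HFD were Prox1, a homeobox factor of liver development, with a log2 ratio of -1.02, Klf10, a TGF-β induced factor, with -1.48, and Tbx3, a T-box factor, with -1.27. Of the 24, 3 had under 50 counts in a library. Among them were Onecut1, with 43 ND counts, and Tbx3, with 30 HFD counts, which passed the count minimum through the library where they were high. Of the nuclear receptors, 1 of 24 measured, Ppara, differed by 2-fold.

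**Figure D3:**
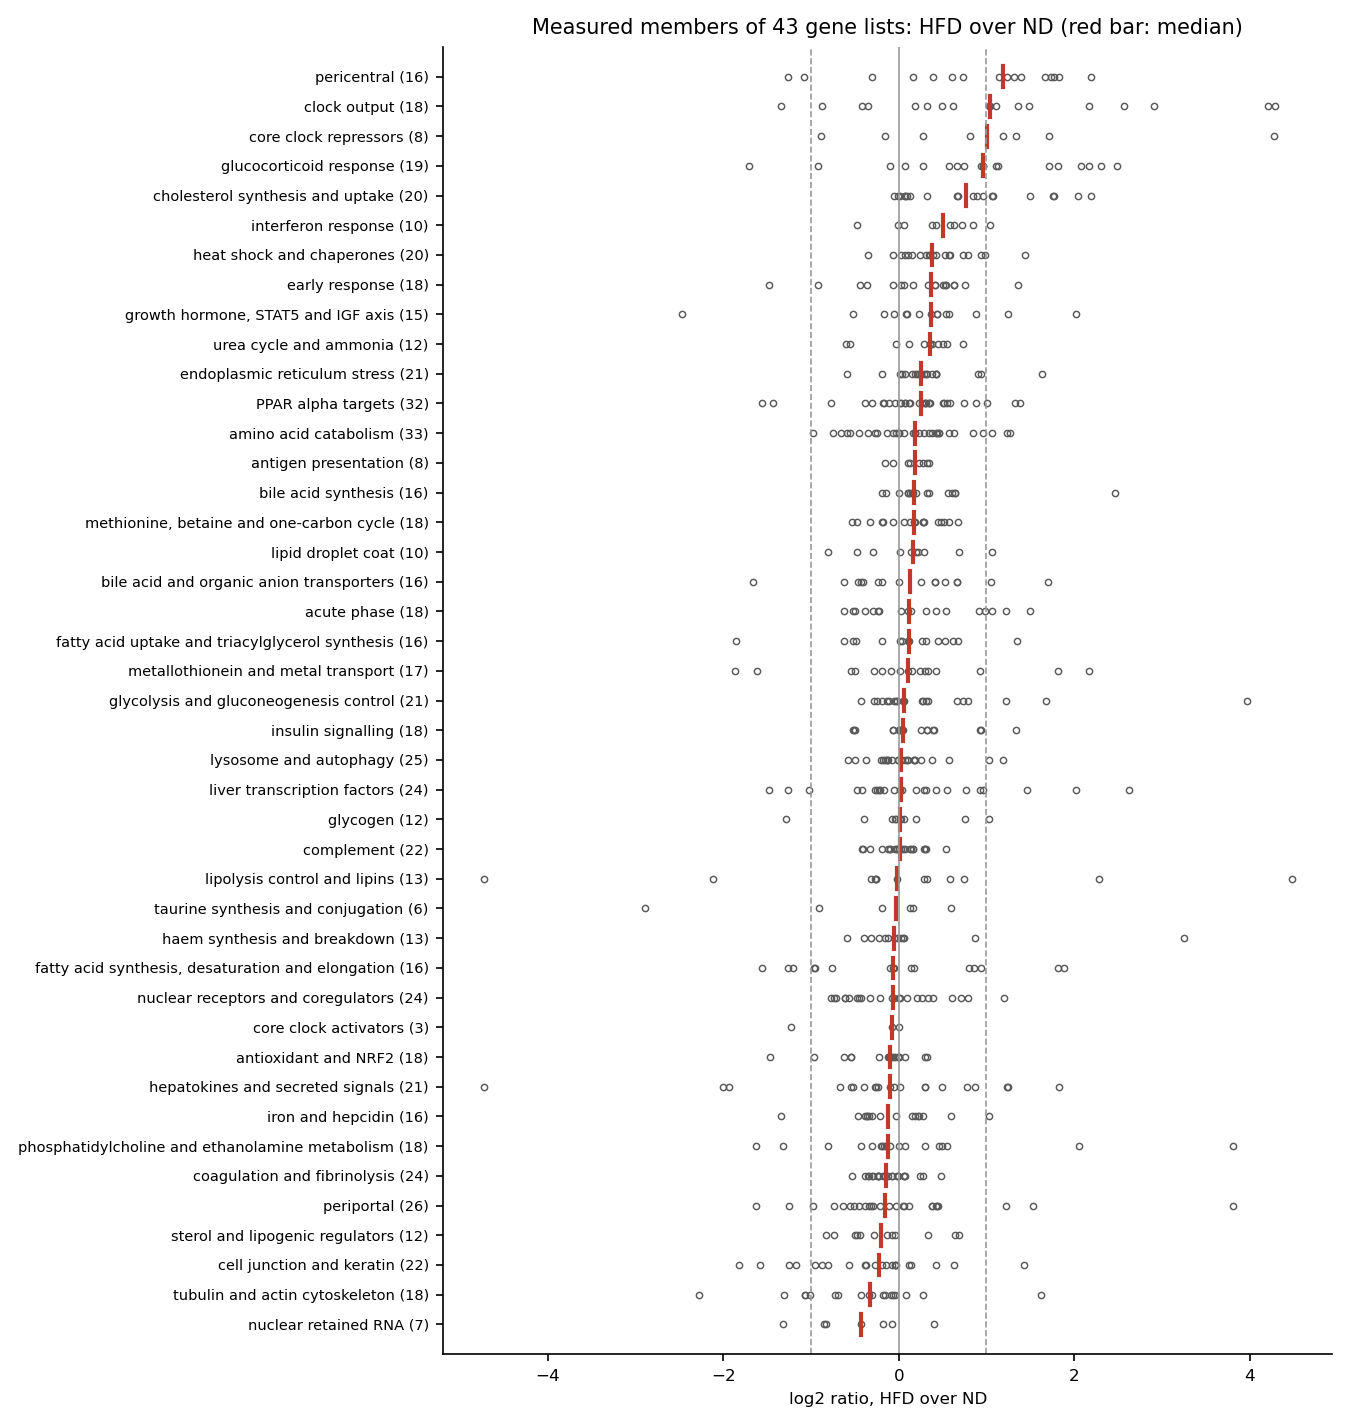
Log2 ratios of HFD over ND (horizontal axis) for the measured members of 43 gene lists, ordered by their median. Open circles are genes, red bars list medians and dashed lines 2-fold in either direction; the number of measured members stands in brackets. Pericentral genes (median 1.19), clock output (1.04) and core clock repressors (1.001) lie at one end, and nuclear retained RNA (-0.43) and the cytoskeleton list (-0.33) at the other.

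In the growth hormone axis a repressor was lower in HFD. Bcl6, which counters STAT5 in the liver, had 21.1 CPM in HFD and 117 CPM in ND (log2 ratio -2.47, -2.84 to -2.13), the lone gene at least 2-fold lower of the 15 measured. Gadd45g, a stress and growth hormone induced gene, had 206 CPM in HFD and 50.7 CPM in ND (log2 ratio 2.02), and Igfbp1, an IGF-binding protein that insulin represses, had 658 CPM in HFD and 277 CPM in ND (log2 ratio 1.25, 1.15 to 1.35). Ghr, the growth hormone receptor, and Igf1 were higher by less than 2-fold (log2 ratios 0.57 and 0.44), and Egfr had 679 CPM in HFD and 368 CPM in ND (log2 ratio 0.88). The list median was 0.37.

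Genes of cholesterol synthesis were higher in HFD, while their regulators lay within 2-fold. Of 20 measured enzymes and uptake genes, 7 were at least 2-fold higher, 0 at least 2-fold lower, and the median log2 ratio was 0.76. Sqle, which epoxidises squalene, had 53.0 CPM in HFD and 12.7 CPM in ND (log2 ratio 2.04, 1.61 to 2.52). Msmo1, Hsd17b7 and Cyp51, later steps on the sterol ring, had log2 ratios of 1.77, 1.76 and 1.07, and Idi1 and Hmgcs1, early steps, 1.49 and 1.06. Of the 12 measured regulators 0 were past 2-fold and the median was -0.21: Srebf2 had a log2 ratio of -0.13, Scap, the escort of the SREBP proteins, -0.50, and Insig1, their retention factor and target, 0.64. A sterol regulatory element, searched as TCACNCCAC and held by 1.24% of all windows, was found in 1 of the 13 regulators with a window, Mlxipl, which was lower in HFD (log2 ratio -0.83), and in 1 of the 15 genes of the cholesterol list with a window, Hmgcs1 (plus strand, chr13:119690101-119690400), shown with the element in capitals.
Hmgcs1: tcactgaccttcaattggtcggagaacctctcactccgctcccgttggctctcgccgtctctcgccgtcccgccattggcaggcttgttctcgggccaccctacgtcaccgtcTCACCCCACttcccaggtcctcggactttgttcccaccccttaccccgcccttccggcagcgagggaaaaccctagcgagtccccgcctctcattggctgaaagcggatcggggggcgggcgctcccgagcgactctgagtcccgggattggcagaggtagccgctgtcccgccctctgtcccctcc
The windows of the other 14 genes of the cholesterol list lacked these letters, which says nothing of sites outside them.

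Fatty acid synthesis differed gene by gene. Of 16 measured genes, 2 lay 2-fold or more above ND and 3 that far below, with a median of -0.06. Scd1, which puts the first double bond into saturated fatty acids, had 3192 CPM in HFD and 9409 CPM in ND (log2 ratio -1.56, -1.59 to -1.53). Acacb and Acaca, the acetyl-CoA carboxylases, had log2 ratios of -1.26 and -0.97, and Elovl3, an elongase, had 70.8 CPM in HFD and 164 CPM in ND (log2 ratio -1.21). Acacb, with 36 HFD and 98 ND counts, passed the count minimum through ND. Fasn, the fatty acid synthase, was near equal, with 229 CPM in HFD and 246 CPM in ND (log2 ratio -0.10, -0.24 to 0.03). Genes of polyunsaturated fatty acids stood on the higher side: Fads2 and Fads1, the desaturases, had log2 ratios of 1.82 and 0.93, and Elovl2, which elongates their products, 0.80. Thrsp, a lipogenic gene known as Spot 14, had 876 CPM in HFD and 238 CPM in ND (log2 ratio 1.88). Of the lipogenic regulators, Srebf1 had a log2 ratio of -0.45, and Mlxipl, which encodes the glucose sensor ChREBP, had 153 CPM in HFD and 271 CPM in ND (log2 ratio -0.83, -0.98 to -0.68).

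Wide gaps in lipid genes were seen at the lipins and at the inhibitors of lipases. Lpin1, a phosphatidate phosphatase that also coactivates PPARα, had 989 CPM in HFD and 44.3 CPM in ND (log2 ratio 4.48, 4.27 to 4.70), and its relative Lpin2 had 306 CPM in HFD and 63.0 CPM in ND (log2 ratio 2.28, 2.09 to 2.48). Angptl8, a secreted protein induced by feeding that limits lipoprotein lipase, had 24.6 CPM in HFD and 656 CPM in ND (log2 ratio -4.73, -5.06 to -4.44). G0s2, which inhibits the droplet lipase ATGL, had 56.7 CPM in HFD and 247 CPM in ND (log2 ratio -2.12), while Pnpla2, which encodes ATGL, had a log2 ratio of -0.27. These 4 were all of the list's 13 measured genes past 2-fold, and the list median was -0.02.

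Uptake, droplet and oxidation genes differed less. Of 16 measured genes of uptake and triacylglycerol synthesis, Fabp2, a fatty acid binding protein, had 237 CPM in HFD and 93.6 CPM in ND (log2 ratio 1.34), Fabp5, another, had 9.996 CPM in HFD and 36.6 CPM in ND (log2 ratio -1.86), and the rest were within 2-fold, with a median of 0.11. Fabp5 had 37 HFD and 152 ND counts and so passed the count minimum through ND. Cd36, a fatty acid translocase, had 32.1 CPM in HFD and 31.3 CPM in ND. In the endothelial and Kupffer marked barcodes Cd36 was at 366 CPM and Fabp5 at 59.9 CPM, and the part of those cells was not tested. Dgat2, which makes triacylglycerol, had a log2 ratio of 0.12. Of 10 droplet coat genes, Plin5, which ties droplets to mitochondria, was higher, with 44.3 CPM in HFD and 21.2 CPM in ND (log2 ratio 1.06), and Plin2, the main droplet coat of hepatocytes, had 217 CPM in HFD and 302 CPM in ND (log2 ratio -0.47).

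Of 32 measured PPARα targets, 3 lay 2-fold or more above ND and 2 that far below, with a median of 0.25. Over all measured genes the shares were 3.12% higher and 2.29% lower, so these counts are small numbers to set beside them. Aldh3a2, a fatty aldehyde dehydrogenase, Vnn1, a pantetheinase, and Cpt1a, the gate of mitochondrial oxidation, had log2 ratios of 1.38, 1.32 and 1.002, and each fell within 2-fold under at least 1 alternative. Vnn1, with 74 HFD and 33 ND counts, passed the count minimum through HFD. The ω-hydroxylases went the other way or not at all: Cyp4a14 had 149.7 CPM in HFD and 403 CPM in ND, Cyp4a12a 106 CPM in HFD and 314 CPM in ND, and Cyp4a10 239 CPM in HFD and 234 CPM in ND. The Cyp4a family summed to 548 CPM in HFD and 1083 CPM in ND (log2 ratio -0.98), and its members are similar enough that reads may be assigned to the wrong one. Ppara itself had 98.9 CPM in HFD and 43.1 CPM in ND (log2 ratio 1.20, 0.94 to 1.47).

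Phospholipid genes had 2 of 18 measured members 2-fold or more above ND and 2 that far below, with a median of -0.12. Mfsd2a, a transporter of lysophosphatidylcholine, had 217 CPM in HFD and 15.4 CPM in ND (log2 ratio 3.81, 3.45 to 4.21). Gpcpd1, which splits glycerophosphocholine, had 177 CPM in HFD and 42.6 CPM in ND (log2 ratio 2.06). Chka, a choline kinase, had 51.9 CPM in HFD and 129.9 CPM in ND (log2 ratio -1.32), and Etnppl, which breaks down phosphoethanolamine, had 168 CPM in HFD and 519 CPM in ND (log2 ratio -1.62). Pemt and Pcyt1a, 2 other enzymes of phosphatidylcholine synthesis, lay within 2-fold, with log2 ratios of -0.20 and 0.46.

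In bile acid synthesis 1 gene passed 2-fold, the first enzyme. Cyp7a1, the rate-limiting 7α-hydroxylase, had 211 CPM in HFD and 38.0 CPM in ND (log2 ratio 2.47, 2.22 to 2.73), while the other 15 of 16 measured genes were within 2-fold and the median was 0.18. Cyp8b1, which sets the share of cholic acid, had 152 CPM in HFD and 133 CPM in ND (log2 ratio 0.19, 0.02 to 0.37), and Cyp27a1 a log2 ratio of 0.16. Nr0b2, which encodes SHP, the repressor that FXR induces, had 77.0 CPM in HFD and 107 CPM in ND (log2 ratio -0.47), and Nr1h4, FXR itself, had 77.5 CPM in HFD and 72.9 CPM in ND. Of 16 measured transporters, Slc10a2, a bile acid importer, was at 100.2 CPM in HFD and 30.8 CPM in ND (log2 ratio 1.70, 1.41 to 2.004), Slco1b2, an organic anion importer, had a log2 ratio of 1.05, and Slco1a4, another, had 14.3 CPM in HFD and 45.7 CPM in ND (log2 ratio -1.66). Abcb11, the bile salt export pump, had a log2 ratio of -0.43. Csad, which makes taurine, the amino acid that mouse bile acids are conjugated with, had 54.8 CPM in HFD and 409 CPM in ND (log2 ratio -2.90, -3.12 to -2.69), the lone member past 2-fold of the 6 measured in its list. Slc6a6, the taurine importer, had 102 CPM in HFD and 191 CPM in ND (log2 ratio -0.90), and Cdo1, the step before Csad, and Baat, which conjugates bile acids, had log2 ratios of 0.16 and 0.13.

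Most glucose genes lay within 2-fold. Of 21 measured genes of glycolysis and gluconeogenesis, 3 lay 2-fold or more above ND and 0 that far below, with a median of 0.06. The shares over all measured genes were 3.12% higher and 2.29% lower. Pfkfb3 and Pfkfb1, which make the glycolytic signal fructose 2,6-bisphosphate, were at 58.4 and 34.0 CPM in HFD and at 3.61 and 10.6 CPM in ND (log2 ratios 3.97 and 1.67). With 15 and 44 ND counts against 216 and 126 in HFD, these 2 of the 3 passed the count minimum through HFD. Pck1, the PEPCK enzyme of gluconeogenesis, had 4043 CPM in HFD and 1730.0 CPM in ND (log2 ratio 1.22, 1.18 to 1.27), but G6pc, its last enzyme, had 909 CPM in HFD and 1002 CPM in ND (log2 ratio -0.14). Of 12 glycogen genes, Gys2, the liver glycogen synthase, had a log2 ratio of 1.03 and Ppp1r3c, which brings a phosphatase to glycogen, had 56.2 CPM in HFD and 137 CPM in ND (log2 ratio -1.29). Of 18 insulin signalling genes, 1 passed 2-fold, Foxo3, a forkhead factor that insulin inactivates, with 74.3 CPM in HFD and 29.3 CPM in ND, and Foxo1 had a log2 ratio of 0.93. Insr, the insulin receptor, had 119 CPM in HFD and 116 CPM in ND.

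Amino acid genes had 3 of 33 measured members at least 2-fold higher, 0 at least 2-fold lower and a median of 0.18. Among the 3 were Got1, the cytosolic aspartate aminotransferase, which had 584 CPM in HFD and 243 CPM in ND (log2 ratio 1.27, 1.16 to 1.38), and Oat, which degrades ornithine near the central vein and had 779.7 CPM in HFD and 333 CPM in ND (log2 ratio 1.23). The 4 histidine pathway genes were all lower by less than 2-fold: Hal, the first enzyme, had a log2 ratio of -0.98, Amdhd1 -0.75, Ftcd -0.58 and Uroc1 -0.45. Urea cycle and one-carbon genes had 0 of 12 and 0 of 18 past 2-fold, with medians of 0.36 and 0.18. Cps1, the entry of the urea cycle, had 5482 CPM in HFD and 4218 CPM in ND, and Ass1 had 2581 CPM in HFD and 2632 CPM in ND.

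Drug-metabolising genes differed by family. The Cyp3a family summed to 767 CPM in HFD and 5962 CPM in ND (log2 ratio -2.96, -3.01 to -2.90), with 3 of its 4 measured genes at least 2-fold lower. Cyp3a11, a target of PXR that held most of the family's ND counts, had 108 CPM in HFD and 4559 CPM in ND (log2 ratio -5.40, -5.55 to -5.26), Cyp3a25 had 494 CPM in HFD and 1234 CPM in ND, and Cyp3a13 had 155 CPM in HFD and 122 CPM in ND. The Cyp1a sum was 517 CPM in HFD and 233 CPM in ND, and the Cyp2c sum was 3174 CPM in HFD and 2538 CPM in ND. Cyp2a5, a coumarin hydroxylase, had 143 CPM in HFD and 44.98 CPM in ND (log2 ratio 1.67). All cytochrome P450 genes together came to 14904 CPM in HFD and 16833 CPM in ND. Nr1i2, which encodes PXR, had a log2 ratio of 0.27, and Nr1i3, which encodes CAR, 0.39.

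Glutathione transferases leaned lower, with 0 of 21 measured genes at least 2-fold higher, 7 at least 2-fold lower and a median of -0.56. The summed family was nevertheless near equal, at 12471 CPM in HFD and 12747 CPM in ND. Gsta1 had 2 HFD and 175 ND counts, Gsta2 had 21.9 CPM in HFD and 199 CPM in ND (log2 ratio -3.17), Gstm1 had 713 CPM in HFD and 2014 CPM in ND (log2 ratio -1.498, -1.56 to -1.44), and Gstm3 a log2 ratio of -2.46. Gsta3 was higher, at 2611 CPM in HFD and 1835 CPM in ND (log2 ratio 0.51). Of 18 measured antioxidant genes 1 passed 2-fold, Osgin1, an NRF2 target, with 58.4 CPM in HFD and 162 CPM in ND; Gclc, which starts glutathione synthesis, had a log2 ratio of -0.96, and Nfe2l2, which encodes NRF2, -0.55. Carboxylesterases had 2 of 12 lower, Ces2a at -1.44 and Ces1e at -1.16. Sulfotransferases summed to 2440 CPM in HFD and 1458 CPM in ND (log2 ratio 0.74), with Sult2a8, a bile acid sulfotransferase of the mouse, at 1694 and 1012 CPM. Copies within the Gsta, Gstm and Ces families are alike, and which copy a read came from is uncertain.

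Major urinary proteins, pheromone carriers that the mouse liver secretes in bulk, differed in their makeup more than in their sum. They took 5.87% of HFD and 4.51% of ND nuclear-encoded counts (58693 and 45113 CPM), and 13 of 16 measured genes were at least 2-fold higher, with a median of 1.80. Mup17 had 5243 CPM in HFD and 263 CPM in ND (log2 ratio 4.32, 4.23 to 4.41), Mup9 383 CPM in HFD and 36.8 CPM in ND and Mup11 6009 CPM in HFD and 1223 CPM in ND. Mup3 and Mup20 differed little, with Mup3 at 21925 CPM in HFD and 17659 CPM in ND and Mup20 at 20829 CPM in HFD and 24838 CPM in ND. Mup genes are near-identical copies, so the split among them is uncertain and the sum is the firmer value. Alb, the albumin gene, had 45003 CPM in HFD and 55892 CPM in ND (log2 ratio -0.31).

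Haem synthesis differed at its first enzyme. Alas1, which is rate-limiting in the liver and is itself a gene of the clock and of fasting, had 431 CPM in HFD and 45.2 CPM in ND (log2 ratio 3.25, 3.03 to 3.48). It was the lone gene past 2-fold of the 13 measured, with Cpox, a later step, at 0.87 and Fech, the last step, at 0.02, and the list median was -0.05. Among iron genes, Hamp, which encodes hepcidin, the hormone that blocks iron export, had 2484 CPM in HFD and 6311 CPM in ND (log2 ratio -1.35, -1.38 to -1.31; -0.97 with cells weighted equally), and its duplicate Hamp2 had 219 CPM in HFD and 107 CPM in ND (log2 ratio 1.03); reads of these 2 copies may be mixed. Ferritin genes were lower by less than 2-fold, with Ftl1 at -0.46 and Fth1 at -0.37. The metallothioneins Mt1 and Mt2, which bind zinc and copper, stood at 343 and 42.7 CPM in HFD and at 97.4 and 9.38 CPM in ND (log2 ratios 1.82 and 2.17), but Mt1 was at 513 CPM in the marked barcodes, whose part was not tested. Slc30a10, a manganese exporter, had 23.8 CPM in HFD and 87.3 CPM in ND (log2 ratio -1.87), and Slc39a4, a zinc importer, had 8.92 CPM in HFD and 27.7 CPM in ND (log2 ratio -1.62). With 33 HFD and 115 ND counts, Slc39a4 passed the count minimum through ND.

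Plasma protein genes were close between the diets. None of the 24 coagulation genes and none of the 22 complement genes passed 2-fold, with medians of -0.14 and 0.02. The 3 fibrinogen chains summed to 8793 CPM in HFD and 10830 CPM in ND. Of 18 measured acute phase genes, Steap4, a metalloreductase, Saa1 and Saa4, serum amyloids, were at least 2-fold higher (log2 ratios 1.5, 1.23 and 1.06), and the median was 0.12. Saa1 and its copies are alike in sequence. Hepatokines had 3 of 21 measured genes at least 2-fold higher, 3 at least 2-fold lower and a median of -0.10. Lect2, a secreted factor linked to steatosis, had 202 CPM in HFD and 57.0 CPM in ND (log2 ratio 1.82), Enho, which encodes adropin, had 22.2 CPM in HFD and 9.38 CPM in ND, Inhba, the activin A subunit, had 10.8 CPM in HFD and 41.6 CPM in ND, and Fst, its antagonist follistatin, had 9.46 CPM in HFD and 38.5 CPM in ND. Enho, Inhba and Fst had under 50 counts in 1 library and passed the count minimum through the other. Fgf21, the fasting hormone of the liver, had 7 HFD and 19 ND counts, under the count minimum.

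Genes of the stress lists lay mostly above 0 but within 2-fold. Chaperone genes had a median of 0.38 with 18 of 20 above 0, and Hsph1, an HSP110 chaperone, had 65.4 CPM in HFD and 24.1 CPM in ND. Endoplasmic reticulum stress genes had a median of 0.25 with 19 of 21 above 0; Herpud1, which links to protein degradation there, had 1498 CPM in HFD and 482 CPM in ND (log2 ratio 1.63, 1.56 to 1.71) and Hspa5, the BiP chaperone, 1059 CPM in HFD and 792 CPM in ND, while Ddit3, the stress factor CHOP, had a log2 ratio of -0.19. Fos, an early response gene that cell isolation also induces, had 476 CPM in HFD and 185 CPM in ND, and its list a median of 0.37. Bnip3 and Atg14, of mitophagy and autophagosome formation, had log2 ratios of 1.03 and 1.18, the 2 of 25 lysosome and autophagy genes past 2-fold. Interferon genes had 1 of 10 measured past 2-fold, Psmb9, an immunoproteasome subunit at 1.04, and antigen presentation genes 0 of 8. Psmb9, with 68 HFD and 37 ND counts, passed the count minimum through HFD. Of these 10 interferon genes, 8 were higher in the marked barcodes. Ribosomal protein genes summed to 41189 CPM in HFD and 52680 CPM in ND (log2 ratio -0.35), and nuclear genes of oxidative phosphorylation to 33674 CPM in HFD and 39453 CPM in ND (log2 ratio -0.23).

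Junction and cytoskeleton genes leaned lower. Of 22 junction and keratin genes, 4 were at least 2-fold lower: Cldn1, a tight junction claudin, had 37.3 CPM in HFD and 112 CPM in ND (log2 ratio -1.58), Cdh1, E-cadherin, 39.4 CPM in HFD and 94.3 CPM in ND, Cgn, cingulin, 17.8 CPM in HFD and 40.4 CPM in ND, and Sox9, a factor of bile duct and periportal cells, 27.0 CPM in HFD and 95.5 CPM in ND. Cldn2, the pericentral claudin, was higher, with 74.8 CPM in HFD and 27.7 CPM in ND (log2 ratio 1.43). Of 18 cytoskeleton genes, 5 were lower, led by the tubulins Tubb2a with 34.3 CPM in HFD and 167 CPM in ND and Tubb5 with 20.5 CPM in HFD and 51.0 CPM in ND. Just 3 of these 18 were no higher in the endothelial and Kupffer marked barcodes, of which ND had more, and the part of those cells was not tested. Tmsb4x, an actin-binding peptide, was higher in HFD at 57.3 CPM against 18.5 CPM in ND, but 80.2% of its HFD and 74.0% of its ND counts sat in 10 cells each. Malat1, a nuclear RNA, had 3807 CPM in HFD and 4304 CPM in ND (log2 ratio -0.18), and 10936 CPM in the marked barcodes.

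Along the liver lobule, genes of the pericentral zone were higher in HFD, and those of the periportal zone were mixed. Of 16 measured pericentral genes, 9 were at least 2-fold higher, 2 at least 2-fold lower, and the median was 1.19. Cyp2e1, which oxidises ethanol, had 4396 CPM in HFD and 1315 CPM in ND (log2 ratio 1.74, 1.70 to 1.79), Gulo, the last enzyme of vitamin C synthesis in mice, 347 CPM in HFD and 75.8 CPM in ND, Rgn, regucalcin, 1505 CPM in HFD and 606 CPM in ND, and Ahr, the dioxin receptor, 56.2 CPM in HFD and 21.4 CPM in ND. Slc1a2, a glutamate importer next to the central vein, had 53.0 CPM in HFD and 15.4 CPM in ND (log2 ratio 1.77), and Glul, the glutamine synthetase of the same cells, 131 CPM in HFD and 79.1 CPM in ND (log2 ratio 0.73). These 2 ratios rest on few cells. In ND, 10 cells held 71.9% of the Slc1a2 counts and 10 cells 63.8% of the Glul counts, against 32.7% and 36.5% in HFD. Glul was at 266 CPM in the endothelial and Kupffer marked barcodes, whose part was not tested. Tbx3 and Rnf43, both tied to the WNT signal of the central vein, were lower (log2 ratios -1.27 and -1.08). They had 30 and 41 HFD counts against 82 and 98 ND counts, so these 2 passed the count minimum through ND. Periportal genes had 3 of 26 higher, 2 lower and a median of -0.16. Cyp2f2, the best known of them, had 1086 CPM in HFD and 1806 CPM in ND (log2 ratio -0.73), and Gls2, the liver glutaminase, had a log2 ratio of -0.55, but Pck1, Apoa4, an apolipoprotein, and Mfsd2a were higher (1.22, 1.53 and 3.81).

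To set cells of like rank within their library side by side, the cells of each library were divided at the median of a score, the share of 6 pericentral minus that of 6 periportal landmark genes, and the landmarks themselves were then not read. The more pericentral group held 1211 HFD and 1334 ND cells and the more periportal group 1652 HFD and 1335 ND cells. The HFD groups are unequal because many cells tied at the median, and all tied cells were put in the periportal group. That median was 0 in HFD and -2.99 counts per 1000 in ND, so each group is relative to its own library. Within 2 counts per 1000 of that median lay 16.6% of HFD and 35.0% of ND cells, and the groups are ranges of a score, not cell types. Median depth ran the opposite way in the libraries, with 938 UMIs in pericentral and 823 in periportal HFD cells and with 777 and 1323 UMIs in ND cells. Within the pericentral group 151 of 3674 measured genes lay 2-fold or more above ND and 116 that far below, and within the periportal group 153 of 4801 higher and 101 lower. Among genes with like ratios in both groups were Mup17 (log2 ratios 4.18 pericentral and 3.95 periportal), Rgs16 (3.82 and 4.43) and Alas1 (3.47 and 3.10).

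Of 87 named genes measured in both zone groups, 84 had a ratio of the same sign in both, the intervals of the 2 groups did not overlap for 28, and for 10 the log2 ratios lay at least 1 apart. Most named genes were chosen by their ratio in the whole sums, of which the 2 groups are parts. A like sign in both therefore follows in large part from that choice and is not a check of the ratio. Cyp3a11, with the widest gap, was at 223 CPM in HFD against 5621 CPM in ND in the pericentral group (log2 ratio -4.65, -4.81 to -4.50), and at 19.1 CPM in HFD against 3978 CPM in ND in the periportal group (log2 ratio -7.68, -8.19 to -7.26). The HFD level was thus mostly that of the pericentral group, while ND cells of both groups held the RNA. Etnppl showed the mirror image, with 28.0 CPM in HFD against 338 CPM in ND in the pericentral group (log2 ratio -3.58, -4.07 to -3.15) and 275 CPM in HFD against 617 CPM in ND in the periportal group (log2 ratio -1.16, -1.30 to -1.03). Fasn, near equal in the whole sums, was lower in the HFD pericentral group (log2 ratio -0.94, -1.20 to -0.68) and higher in the HFD periportal group (log2 ratio 0.30, 0.14 to 0.46). Scd1 was lower in both (-2.26 pericentral and -1.13 periportal), as was Chka (-2.15 and -0.90), Mup9 was higher mainly in the pericentral group (3.93 and 1.72), and Ppp1r3c was lower mainly in the periportal group (-0.62 and -2.001). The other 2 of the 10 were Lpin1 (5.38 and 4.28) and Efna1, an ephrin ligand (-2.29 and -1.23). Mt1 was higher mainly in the periportal group (log2 ratio 0.76, 0.42 to 1.10 pericentral; log2 ratio 2.22, 2.04 to 2.42 periportal). With 1 library a diet, these differences between zone groups have no replicate check either.

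**Figure D4:**
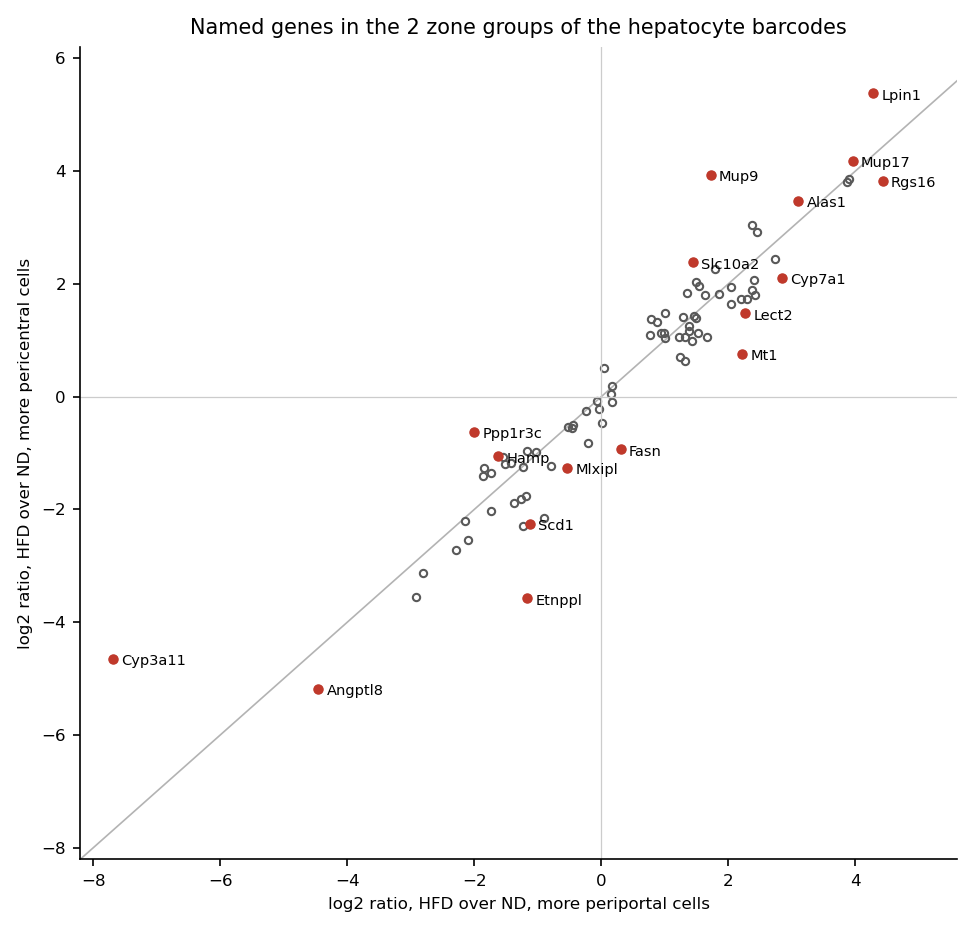
Log2 ratio of HFD over ND in the more periportal group of the cells (horizontal axis) and in the more pericentral group (vertical axis) for 87 named genes measured in both, haemoglobin genes left out; the diagonal marks equal ratios, and red points with names are examples. Cyp3a11, Etnppl and Mup9 lie farthest off the diagonal, followed by Mt1 and Ppp1r3c; the median distance between the 2 ratios of a gene was 0.445.

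Shares of cells with a count were taken after thinning, beside the share in endothelial marked barcodes, a cell type that should lack most hepatocyte genes. After each cell was thinned to 500 counts, which left 1947 of the HFD and 2335 of the ND cells, Lpin1 was found in 35.7% (33.6 to 37.9%) of HFD cells and 1.93% (1.41 to 2.57%) of ND cells, against 2 of the 12 endothelial marked HFD barcodes (16.7%, with an interval reaching 48.4%) and 1.16% of the 86 such ND barcodes. Median depths before thinning were 869 UMIs in HFD and 936 in ND hepatocytes, and 768 UMIs in HFD and 1029 in ND endothelial marked barcodes. Mup17 was found in 59.9% (57.7 to 62.1%) of HFD cells and 11.6% (10.3 to 12.97%) of ND cells, and Cebpb in 44.2% (41.9 to 46.4%) and 17.0% (15.5 to 18.6%), against 8 and 5 of the 12 endothelial marked HFD barcodes (66.7% and 41.7%) and 3.49% and 6.98% of the ND ones. The HFD shares of these 2 genes were not set apart from background. Their CPM can hold the same free RNA, with Mup17 at 313 CPM and Cebpb at 646 CPM in the endothelial and Kupffer marked barcodes of both libraries. Alas1, Rgs16 and Mfsd2a were in 21.2%, 16.1% and 10.9% of HFD cells, against 16.7%, 8.33% and 8.33% of the 12 endothelial marked HFD barcodes, or 2, 1 and 1 of them, too few to set these shares apart from background, which holds for Lpin1 too. Their ND shares of 2.61%, 0.985% and 0.899% were at or below the 3.49%, 1.16% and 1.16% of the endothelial marked ND barcodes, the level of background. In the other direction, Cyp3a11 was found in 3.65% (2.86 to 4.58%) of HFD cells and 83.5% (81.9 to 85.0%) of ND cells, but also in 66.3% of endothelial marked ND barcodes. Angptl8 was in 1.13% (0.709 to 1.71%) of HFD and 30.3% (28.4 to 32.2%) of ND cells, with 8.14% in those barcodes; neither gene had a count in the 12 HFD ones, which allows a share of up to 26.5% by the interval. Scd1 was found in 64.7% of HFD and 97.6% of ND cells, but in 97.7% of the endothelial marked ND barcodes, so its ND share cannot be set apart from free RNA. Its CPM can hold that RNA too, with 5465 CPM in the endothelial and Kupffer marked barcodes of both libraries. Without thinning, Lpin1 was in 55.4% of HFD and 6.18% of ND cells and Cyp3a11 in 5.87% and 94.8%.

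**Figure D5:**
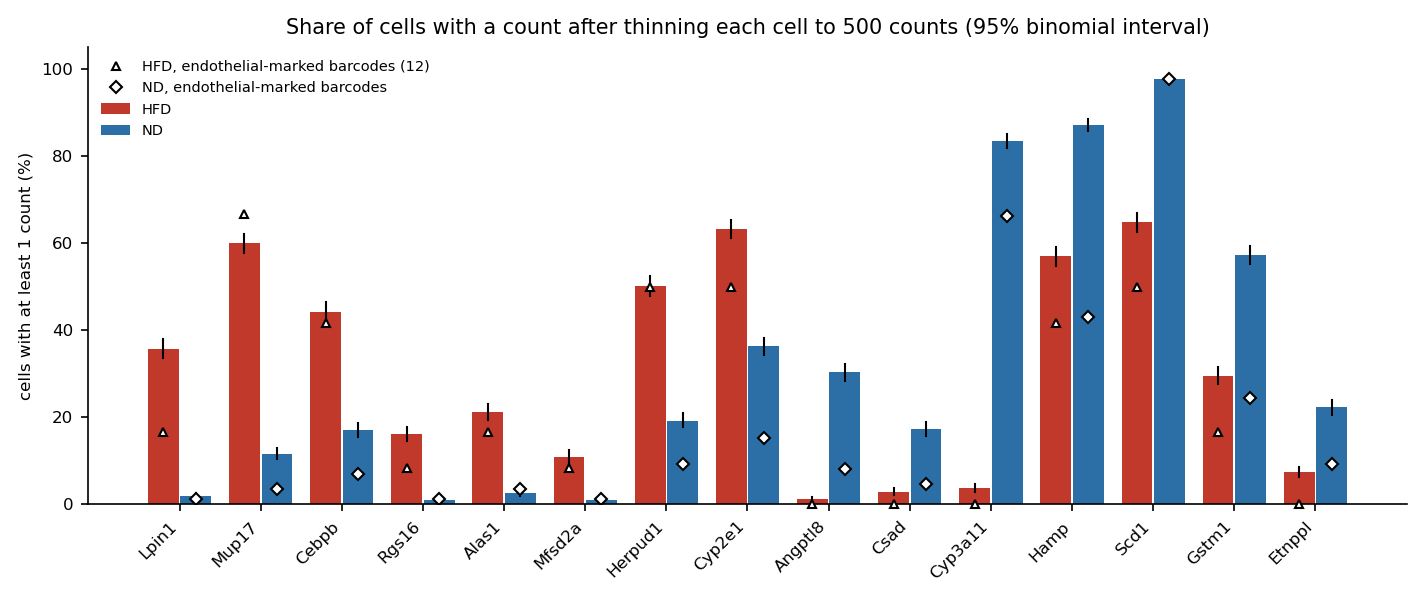
Share of cells with at least 1 count after thinning to 500 counts per cell (vertical axis, percent) for 15 genes, HFD in red left of ND in blue, with 95% binomial intervals, and white triangles for the 12 endothelial marked HFD barcodes and white diamonds for the 86 ND ones. Lpin1 stands at 35.7% in HFD against 1.93% in ND, and Cyp3a11 at 3.65% against 83.5%; the triangles and diamonds give the share in barcodes of another cell type, which for Mup17, Cebpb and Herpud1 in HFD is close to or above that of the hepatocytes.

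The same filters kept 2942 cells of the library from mice given HDCA with the high fat diet. Comparisons with it would share the HFD or the ND library with the diet comparison, so its values are set beside theirs with no further statistic. Lpin1 stood at 489 CPM in HFD_HDCA, beside 989 CPM in HFD and 44.3 CPM in ND, and Cebpb at 817, 1195 and 294 CPM. Of the clock genes, Ciart had 27.6 CPM in HFD_HDCA, 30.3 in HFD and 1.44 in ND, and Usp2 had 53.5, 44.6 and 2.16 CPM, so both high fat libraries stood above ND. Cyp3a11 was low in both as well, at 180.4 CPM in HFD_HDCA and 108 CPM in HFD against 4559 CPM in ND, as was Bcl6, at 16.0, 21.1 and 117 CPM. Other genes of the diet comparison lay nearer to ND in HFD_HDCA: Onecut1 had 11.7 CPM in HFD_HDCA, 64.3 in HFD and 10.3 in ND, Gpcpd1 49.5, 177 and 42.6, and G0s2 195, 56.7 and 247. Cyp7a1 was at 14.5 CPM in HFD_HDCA, below both 211 CPM in HFD and 38.0 CPM in ND.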

How the data were processed

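The deposited matrices held UMI counts for each gene and barcode. Per the file headers, Cell Ranger 5.0.0 produced them, and per the submitters' processing notes they refer to mm10. Not given in the sources used here are the aligner settings and the choice of barcodes. The files list the same 32285 features for each library.

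Barcodes were kept by the limits given with the results, no doublet caller was run, and counts of the kept cells were summed per library and scaled to 1000000 nuclear-encoded counts (CPM). Log2 ratios of HFD over ND were taken after adding 0.5 to each summed count, with 95% exact conditional binomial intervals. CPM had exact Poisson intervals, and shares of cells had exact binomial ones (Clopper-Pearson). For a gene with no count the limit was set at 3 counts, or 0.810 CPM in HFD and 0.722 CPM in ND. Intervals and limits cover counting error only. The median of all measured genes stands in for a test of a list. For cell shares, each cell was thinned to 500 nuclear-encoded counts with a fixed seed, and shallower cells were left out.

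The 15 highest and 15 lowest ratios were named among measured genes that reached 50 CPM in one library and were not higher in endothelial or Kupffer marked barcodes. Left out were Xist, genes of the Y chromosome, gene models with no proper name, and mitochondrial and ribosomal protein genes. Without those 2 limits, up to 4 measured members of each of 43 lists past 2-fold in each direction were added, and 26 fixed genes of lipid, bile acid and plasma protein biology. Any other gene given with values was picked from a list or a gene family after its values were seen. Some genes that this rule or the lists hold are not reported here. The members and the lists were chosen with earlier results of these data known.

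Promoter windows and their coordinates came from RefSeq (GRCm38.p6). Scripts were checked on simulated data. Software was Python 3.11.15, numpy 2.4.6, scipy 1.17.1, pandas 2.3.3 and matplotlib 3.10.9. Alternatives covered the scaling, the count minimum, the cell filters, cell weights, thinning, other-cell RNA and the zone along the lobule.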

Additional observations from a re-analysis of the deposited data

How the results depend on the processing

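Of 111 named genes past 2-fold, 88 stayed past it under each of 15 alternatives that measured them, and 23 did not under at least 1. For 54 of the 111, at least 1 alternative left the gene under the count minimum and is not in this tally: there Igkc turned round, to a log2 ratio of -1.27, and Hba-a2 had no count left, without the barcodes marked as other cells. Among the 23 were Acacb, Aldh3a2, Bnip3, Cdh1, Chka, Cpt1a, Gys2, Hamp, Hamp2, Igfbp1, Mt1, Plin5, Ppp1r3c, Prox1, Psmb9, Rnf43, Saa4, Slco1b2, Tmsb4x, Tpm1, Tuba1b and Vnn1. The count of genes turned with the count minimum: at least 20 counts gave 320 higher and 497 lower of 9653 genes, at least 500 counts gave 93 and 38 of 2149, and no minimum gave 1512 and 2333 of 14541. The higher genes were 57.7% of those past 2-fold in the main analysis, and 39.2%, 71.0% and 39.3% under these 3 minimums. With cells thinned to 500 counts the counts were 115 and 81 of 2849, with 101 and 48 in common; the smaller number of genes measured follows from the thinning. The other alternatives stayed within 1.5 times, from 151 to 217 higher and from 98 to 190 lower. The median log2 ratio of the core clock repressors ran from 0.09 in cells with at least 500 genes to 1.12 with cells weighted equally, and the cause was not tested. That of clock output ran from 0.97 to 1.35, that of cholesterol genes from 0.65 to 0.96 and that of pericentral genes from 0.73 to 2.01. The medians of 19 of the 43 lists changed sign under some alternative, each with a main median near 0. No paired analysis was possible because each diet had 1 library. Genes under 20 CPM rest on few counts, and depth limits what can be said of them.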

Other observations

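Further genes were picked after their values were seen, and stand for no group. Among higher genes, Ddit4, an inhibitor of mTOR, had 35.4 CPM in HFD and 5.53 CPM in ND (log2 ratio 2.65), Slc38a2, an amino acid importer, had 772 CPM in HFD and 336 CPM in ND (log2 ratio 1.20), and Trp53inp1, a stress gene of autophagy, had 306 CPM in HFD and 152 CPM in ND (log2 ratio 1.002). Dio1, which activates thyroid hormone, had 199 CPM in HFD and 49.8 CPM in ND (log2 ratio 1.997), and Aacs, which makes acetoacetyl-CoA in the cytosol, had 47.8 CPM in HFD and 11.5 CPM in ND (log2 ratio 2.04). Maff, a small MAF transcription factor, had 25.1 CPM in HFD and 4.09 CPM in ND.

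Among lower genes, also picked after their values were seen, Fgfr4, the receptor of the intestinal hormone FGF15, had 13.8 CPM in HFD and 31.7 CPM in ND (log2 ratio -1.20, -1.70 to -0.73), and Fgfr3 had 13.2 CPM in HFD and 27.2 CPM in ND. Cyp26a1, which clears retinoic acid, had 10.5 CPM in HFD and 43.3 CPM in ND (log2 ratio -2.02), Id2, an inhibitor of helix-loop-helix factors, had 327 CPM in HFD and 790.3 CPM in ND (log2 ratio -1.27), and Ephx1, an epoxide hydrolase, had 80.0 CPM in HFD and 177 CPM in ND (log2 ratio -1.14). Coq10b, one of the 15 genes with the highest ratios by the naming rule, and Coq8a, both of coenzyme Q biology, differed in opposite directions, with 203 CPM in HFD and 33.9 CPM in ND for Coq10b and 76.5 CPM in HFD and 207 CPM in ND for Coq8a.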
